A study of Mus musculus with 33 samples.

Results

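A set of 10 genes named in the usual descriptions of mouse dendritic cells was followed through every library of the series: Xcr1, Clec9a, Batf3, Zbtb46, Flt3, Cd209a, Clec4a4, Siglech, Ccr9 and Fscn1. They were taken by gene symbol from a table of 56414 rows, of which 36109 held reads, and each of the 10 symbols had exactly 1 row. C57Bl/6 mice without tumors were left untreated or drank water with 0.5% nicotinamide (NAM, the amide form of vitamin B3) for 1, 3 or 14 days, and poly(A) RNA was sequenced in libraries labelled spleen (S) or lymph node (LN). The labels describe RNA extracted fresh from the removed organs, the study's text speaks of spleen and lymph node cells, and neither describes sorting. The S libraries numbered 5 in each of the 4 groups. In LN, 3 libraries came from untreated mice and 2, 4 and 4 from mice given NAM for the 3 durations in this order. Nothing in the labels ties a library to a given animal, so p-values measure the spread between these libraries only.

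Dendritic cells sample antigen and present it to T cells. Conventional type 1 cells (cDC1), which depend on the transcription factors Irf8 and Batf3, excel at cross-presentation to CD8 T cells. Conventional type 2 cells (cDC2) depend on Irf4 and favor CD4 T cells. Plasmacytoid cells (pDC), which depend on Tcf4, are known for secreting type I interferon. All of these lineages need Flt3 and its ligand. Once matured, dendritic cells express the chemokine receptor Ccr7 and the actin-bundling protein fascin. Each of these cells is rare in a whole lymphoid organ, and in such bulk RNA a lower level of a gene can come from fewer cells of a type or from less RNA per cell, which cannot be told apart.

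The tissue labels went against the defining markers. Glycam1, a product of the high endothelial venules of lymph nodes, stood between 108200 and 214200 normalised counts in the 20 libraries labelled spleen and between 1.58 and 12.4 in the 13 labelled lymph node. Spic, the transcription factor of splenic red pulp macrophages, ran the other way, with 774.3 to 1295 in S and 6117 to 10490 in LN. S and LN therefore stand below for the labels and not for an organ. A further 3 lists of marker genes differed between libraries of 1 label. The summed adipocyte list ranged from 45340 to 609200 in S. The summed erythroid list was 1210000 to 2511000 in the untreated LN libraries and 263500 to 1141000 after 3 days. Of the 2 LN libraries at 1 day, replicate 1 carried 125400 normalised counts of pancreas genes, against at most 1270 in each of the other 12 LN libraries.

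All 10 genes passed the filter of a mean of at least 10 normalised counts in both labels. Few of them changed with NAM. In S, Xcr1 and Clec9a, a pair of cDC1 receptors, fell after 3 days, and in LN, Fscn1 rose after 3 days. With limma and a Benjamini-Hochberg adjusted p under 0.05, 2 of the 10 genes were called in S after 3 days, both lower, where 5.55% of all 18243 rows tested were called and 2.74% were called lower. Of those 1013 rows 499 were lower, and with TMM scaling 308 of 1043. In LN after 3 days, 1 of 10 was called, higher, where 1.24% of 18215 rows were called and 0.335% were called higher. There edgeR called 0 of the 10 and DESeq2 1, while in S after 3 days each called 2.

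None of the 10 was called in S after 1 day, where 16.6% of rows were called. The same count of 0 was found in S after 14 days (0.0% of rows), in LN after 1 day (1.21%) and in LN after 14 days (0.791%). In these 4 comparisons edgeR and DESeq2 also called 0 genes of the 10, and 1, 1, 5 and 1 genes respectively had an unadjusted p under 0.05 by limma, as did 30.9%, 2.8%, 15% and 11.8% of all rows. The median change of the 10 genes was 0.10, 0.16 and 0.02 on the log2 scale in S after 1, 3 and 14 days, and 0.26, 0.24 and 0.03 in LN, while the median of all rows lay between 0.0 and 0.005. Between durations none of the 10 was called by limma. The share of all rows called there was 0.00548% (3 against 1 day), 10.6% (14 against 1) and 1.05% (14 against 3) in S, and 0.357%, 0.401% and 0.011% in LN, and 0, 1 and 2 of the 10 genes in S and 1, 3 and 2 in LN had an unadjusted p under 0.05. No other tool was run on these. The 3 comparisons with untreated libraries within a label share the same untreated libraries. Their values for each gene are given side by side in the plot of fold changes.

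**Figure D1:**
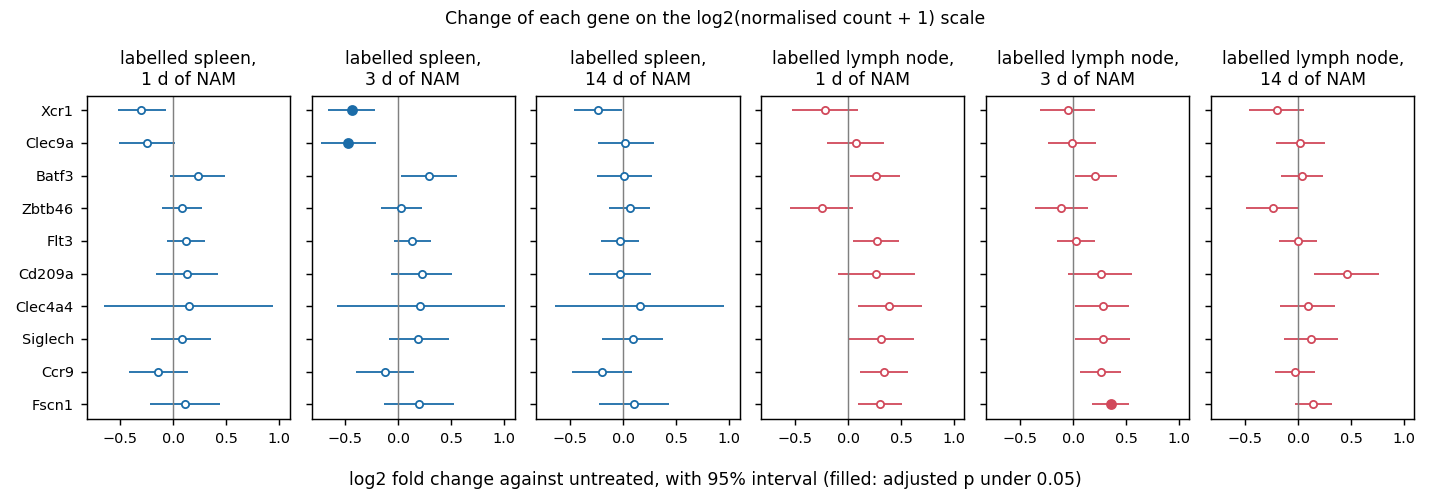
Log2 fold change of each gene against the untreated libraries of the same label (x axis, log2(normalised count + 1) scale) with its 95% interval, for 1, 3 and 14 days of NAM in the libraries labelled spleen (blue) and lymph node (red). Filled points, with an adjusted p under 0.05 by limma, are Xcr1 (-0.44) and Clec9a (-0.47) in S and Fscn1 (0.36) in LN, each after 3 days.

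Xcr1 encodes the receptor for the chemokine Xcl1, which draws cDC1 toward activated T cells and NK cells. Its row (GSMG0041495) covers chr9:123852315-123862030 of mm10, minus strand, with 2 exon blocks. In the untreated S libraries Xcr1 stood at 1932, 1872, 1944, 1598 and 1615 normalised counts. After 3 days of NAM the 5 libraries held 1472, 1390, 1227, 1400 and 1124. Every library after 3 days lay below every untreated one, and the groups did not overlap. The mean went from 1792 ± 172 (SD, n = 5) to 1322 ± 143 (SD, n = 5), a log2 change of -0.44 (SE 0.11, 95% interval -0.66 to -0.22, adjusted p = 0.0249 by limma).

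After 1 day the S values of Xcr1 were 1695, 1113, 1499, 1393 and 1644, with 3 of 5 below all untreated libraries. The log2 change was -0.30 (SE 0.11, adjusted p = 0.0642 by limma). After 14 days they were 1635, 1315, 1586, 1403 and 1666, again with 3 of 5 below, and the log2 change was -0.24 (SE 0.11, adjusted p = 1.0 by limma). The lowest mean of the 3 durations was that of day 3, but neither the step from 1 to 3 days (-0.14, SE 0.11, adjusted p = 0.846) nor that from 3 to 14 days (0.20, SE 0.11, adjusted p = 0.364) was called by limma.

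Clec9a is the cDC1 receptor that senses actin exposed on dying cells. Its row (GSMG0032532) covers chr6:129408861-129424764 of mm10, plus strand, with 7 exon blocks, and its exons overlap those of Clec1b on the same strand, so reads of this pair may have been shared. Clec9a held 233.7, 304, 307, 264.7 and 265.3 normalised counts in the untreated S libraries. After 3 days the values were 206, 202.9, 166.2, 223.8 and 192.7, all below the lowest untreated library. The mean went from 274.9 ± 30.7 to 198.3 ± 21.2 (SD, n = 5 each), a log2 change of -0.47 (SE 0.13, 95% interval -0.73 to -0.21, adjusted p = 0.0353 by limma).

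After 14 days Clec9a was back among the untreated values, at 281.2, 249.2, 296.9, 245.7 and 325.2, with a log2 change of 0.02 (95% interval -0.24 to 0.29). All 5 libraries at 14 days lay above all 5 at 3 days. That difference of 0.49 (SE 0.13) had an adjusted p of 0.0591 by limma. After 1 day the 5 values spread from 183.8 to 283.9 and the log2 change was -0.25 (adjusted p = 0.19 by limma). These were the only 2 of the 10 genes whose S groups did not overlap after 3 days, a separation seen in 5.06% of all rows.

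Of the 10 fits that left out 1 library, Xcr1 was called in 5 and Clec9a in 2. In the others, the adjusted p of Xcr1 (limma) was 0.062 or 0.0549 without untreated replicate 1 or 2, and 0.0517, 0.0822 or 0.0871 without 3-day replicate 2, 3 or 5. That of Clec9a was 0.0818, 0.0704, 0.0591 or 0.0616 without untreated replicate 2, 3, 4 or 5, and 0.0734, 0.118, 0.0513 or 0.0921 without 3-day replicate 2, 3, 4 or 5. Both remained lower in all 10 of these fits, between -0.48 and -0.38 for Xcr1 and between -0.53 and -0.41 for Clec9a. With the summed adipocyte list as a covariate, added after the data were seen, both were still called (Xcr1 -0.40, adjusted p = 0.00718; Clec9a -0.45, adjusted p = 0.0234, by limma). Over the 11 alternatives that kept all libraries of both groups Clec9a was called in 6 and lost with no filter (0.0585), TMM scaling (0.0525), the replicate block (0.0517) and the 2 groups alone (0.0572), and Xcr1 was called in 9 and lost with the 2 groups alone (0.0513). Neither was called by an unadjusted p under 0.05 with a fold of at least 1.5, since neither change was that large. Among lists of other cell types in the same comparison, 2 of 12 macrophage genes were called lower (Timd4 -0.60, Cd68 -0.45) and 1 higher (Vcam1 0.37), with summed levels of 43170 to 56320 after 3 days against 52170 to 81380 in the untreated libraries. In the lists of T cells (1 of 10, Lef1 -0.54, list median -0.17), monocytes (1 of 10, Treml4 -0.65, median -0.13) and high endothelial venules (1 of 8, Madcam1 -0.89, median -0.02), 1 gene each was called lower and none higher, and none was called in the lists of B cells, NK cells, neutrophils, erythroid cells, adipocytes and pancreas. The summed T cell list was 57900 to 74870 after 3 days and 58910 to 85960 without NAM. The part of these cells in the result was not tested. Depth also differed in this comparison. The 5 libraries at 3 days held 43632016 to 54830743 reads and the 5 untreated ones 18325061 to 31486631, with no overlap. The part of depth was not tested either.

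Batf3, the transcription factor that cDC1 require, did not follow Xcr1 and Clec9a. In the untreated S libraries it stood at 491.7, 496, 404.9, 371.6 and 345.8, and after 3 days at 394.1, 593.3, 497.6, 587.9 and 500.1. Of the 5 libraries at 3 days, 4 lay above every untreated one. The log2 change was 0.29 (SE 0.12, 95% interval 0.03 to 0.55, adjusted p = 0.184 by limma), and the adjusted p was 0.0363 without 3-day replicate 1 and 0.0479 with the adipocyte covariate.

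A ratio of reads within 1 library does not depend on how libraries were scaled. The log2 ratio of Xcr1 to Batf3 was 2.10 ± 0.15 (SD, n = 5) in untreated S libraries and 1.37 ± 0.30 (n = 5) after 3 days, with all 5 libraries below the lowest untreated one. After 1 day it was 1.57 ± 0.23 (4 of 5 below) and after 14 days 1.85 ± 0.22 (4 of 5 below). In LN the same ratio was 1.16 ± 0.07 (n = 3) without NAM, and 0.69, 0.90 and 0.92 after 1, 3 and 14 days, with 2 of 2, 3 of 4 and 4 of 4 libraries below all untreated ones. The mean ratio was thus lower in every NAM group of both labels, where the NAM groups of a label share its untreated libraries. The log2 ratio of Clec9a to Batf3 in S was -0.61 ± 0.29 without NAM, -1.08 ± 0.29 after 1 day (3 of 5 below) and -1.37 ± 0.26 after 3 days (4 of 5 below). After 14 days it differed from untreated by 0.01 in S and by -0.02 in LN, with no library below all untreated ones. In LN it differed by -0.19 after 1 day (2 of 2 below) and by -0.22 after 3 days (3 of 4 below). These are ratios of reads, not of levels per length, and no test was run on them. The ratios to Batf3 were formed from the same values of Xcr1, Clec9a and Batf3 given above and are not a separate result.

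The log2 ratio of Xcr1 to Clec9a was 2.71 ± 0.19 in untreated S libraries and 2.74 ± 0.14 after 3 days, when both genes were lower. After 14 days it was 2.45 ± 0.08, with 5 of 5 libraries below all untreated ones, when the change of Clec9a was 0.02 and that of Xcr1 -0.24. In LN it was 1.83 ± 0.05 without NAM, 1.54 ± 0.25 after 1 day (2 of 2 below), 1.79 ± 0.12 after 3 days (2 of 4 below and 1 above) and 1.62 ± 0.11 after 14 days (4 of 4 below). The log2 ratio of Xcr1 to the cDC2 lectin Cd209a was 3.05 ± 0.25 without NAM and 2.39 ± 0.27 after 3 days in S (4 of 5 below), and 2.51 ± 0.17 without NAM and 1.86 ± 0.17 after 14 days in LN (4 of 4 below). How often ratios of other pairs of genes separate in this way was not counted. Groups of single rows did not overlap in 32.6%, 15.3% and 11.5% of rows in LN after 1, 3 and 14 days. In S the share was 5.06% after 3 days and 0.548% after 14 days.

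**Figure D2:**
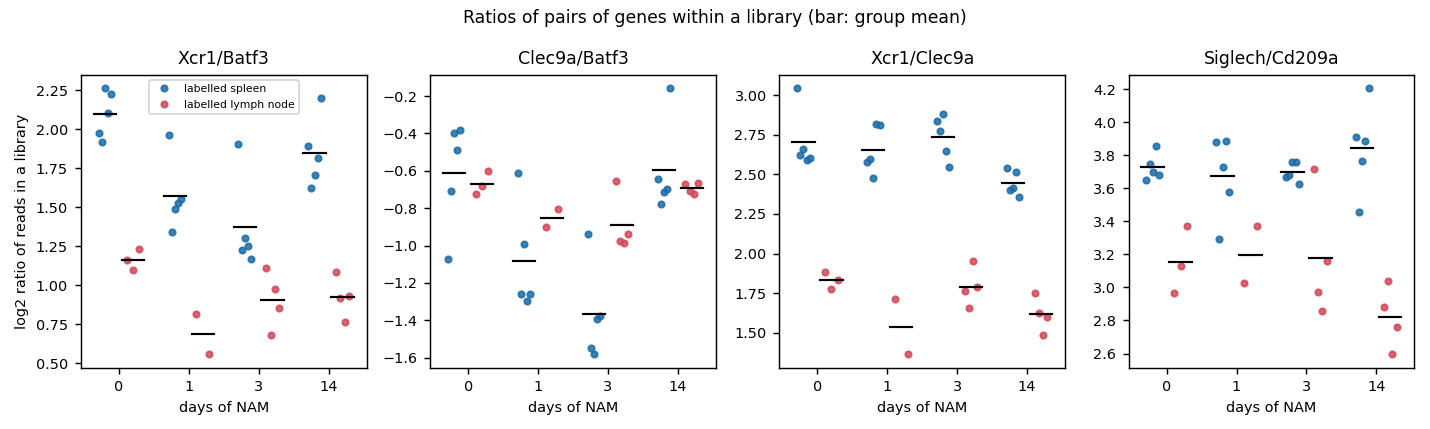
Log2 ratio of the reads of a pair of genes within each library (y axis) by days of NAM (x axis), for the libraries labelled spleen (blue) and lymph node (red), with the group mean as a bar. The Xcr1/Batf3 ratio of the S libraries lies at 1.92 to 2.26 without NAM and at 1.17 to 1.90 after 3 days.

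In LN the cDC1 receptors gave no call. Xcr1 stood at 1797, 1783 and 1824 in the untreated libraries, at 1865 and 1279 after 1 day, at 2016, 1534, 1914 and 1562 after 3 days, and at 1710, 1345, 1553 and 1698 after 14 days. All 4 libraries at 14 days lay below the untreated ones, and the log2 change was -0.20 (SE 0.12, adjusted p = 0.572 by limma). With the summed erythroid list as a covariate, added after the data were seen, the change of Xcr1 was 0.0296 after 14 days and 0.2443 after 3 days. Clec9a ranged from 435.4 to 594.4 over the 13 LN libraries and its changes lay between -0.01 and 0.07. Batf3 was above all untreated libraries in 2 of 2 libraries at 1 day (0.26, adjusted p = 0.293) and in 4 of 4 at 3 days (0.21, adjusted p = 0.302, both by limma). The change in S minus that in LN after 3 days was -0.39 (SE 0.17, adjusted p = 0.319) for Xcr1 and -0.46 (SE 0.18, adjusted p = 0.237) for Clec9a. Tested in this way by a limma interaction term, the labels were not shown to differ for any of the 10 genes at 1, 3 or 14 days. Of all 17147 rows, 1.69%, 0.735% and 0.14% were called in these 3 tests, and 1, 3 and 1 of the 10 genes had an unadjusted p under 0.05.

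The bases before the start sites of the 3 called genes are shown as a description, with no test of their part in any change. They are the 250 bases upstream of each RefSeq start site on GRCm38.p6, the assembly that mm10 names, at chr9:123862030-123862279 (Xcr1, minus strand), chr6:129408612-129408861 (Clec9a, plus strand) and chr5:142960105-142960354 (Fscn1, plus strand). Such a window was found for 9 of the 10 genes. Capitals mark TATAAA, or TTTATA where the match is on the other strand.
Xcr1: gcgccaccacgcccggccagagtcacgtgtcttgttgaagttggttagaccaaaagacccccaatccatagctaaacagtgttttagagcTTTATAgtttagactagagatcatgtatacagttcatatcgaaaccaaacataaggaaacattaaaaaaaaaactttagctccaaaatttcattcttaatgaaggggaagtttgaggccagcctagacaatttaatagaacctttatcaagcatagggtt
Clec9a: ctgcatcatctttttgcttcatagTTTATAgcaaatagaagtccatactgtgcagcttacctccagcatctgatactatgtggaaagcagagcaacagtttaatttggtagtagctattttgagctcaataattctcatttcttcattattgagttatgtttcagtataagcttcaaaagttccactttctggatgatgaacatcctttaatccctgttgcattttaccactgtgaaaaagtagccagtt
Fscn1: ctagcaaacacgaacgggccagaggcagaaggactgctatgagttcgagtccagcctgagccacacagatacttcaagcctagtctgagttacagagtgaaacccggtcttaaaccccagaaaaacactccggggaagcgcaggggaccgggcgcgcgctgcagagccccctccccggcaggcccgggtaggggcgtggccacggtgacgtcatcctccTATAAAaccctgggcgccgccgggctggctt
With -1 as the last base before the start site, Fscn1 holds TATAAA at -31 to -26. The matches of Xcr1 (-160 to -155) and Clec9a (-226 to -221) are on the other strand. So is a match of Cd209a (-184 to -179), whose log2 change in S after 3 days was 0.22. TATAAA on either strand occurs in 12.4% of the 32851 windows of the table. None of the 3 windows holds TGANTCA (an AP-1 motif, in 6.75% of windows), an interferon response motif (GAAA, any 2 bases, GAAA, in 2.98%) or GAGGAAGT (a PU.1 motif, 2.44%), searched on both strands. The windows also differ in composition. Xcr1 and Clec9a have 38.8% and 35.6% G and C with 5 and 0 CpG, and Fscn1 has 62.4% with 18 CpG, against a median of 52.4% and 6 CpG over all windows.

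Zbtb46, a zinc finger factor that separates conventional dendritic cells from other myeloid cells, and Flt3, the receptor tyrosine kinase on which dendritic cell development depends, changed little in S. Zbtb46 ranged from 300.7 to 398.2 over all 20 S libraries, and its log2 change was 0.08, 0.03 and 0.06 after 1, 3 and 14 days, none with a 95% interval beyond -0.16 to 0.27. Flt3 ranged from 1059 to 1480, with changes of 0.12, 0.13 and -0.03, none of them called. With the adipocyte covariate its 1-day change in S was 0.23 and was called (adjusted p = 0.0179 by limma), in a fit that also called more of all rows. In LN, Flt3 stood at 1569 and 1596 after 1 day, above the 1435, 1216 and 1303 of the untreated libraries. That change of 0.27 (SE 0.10) had an adjusted p of 0.23 by limma. After 3 days Flt3 stood at 1192 to 1477, and the step from 1 to 3 days was not called (-0.24, adjusted p = 0.535 by limma). Zbtb46 in LN was lower in both libraries at 1 day (402.7 and 345.8 against 427.8 to 462.4 untreated, -0.25, adjusted p = 0.433 by limma). After 3 and 14 days its changes were -0.11 and -0.24 (adjusted p = 0.717 and 0.451 by limma), each with 3 of 4 libraries below all untreated ones.

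Cd209a, a C-type lectin of cDC2 and of monocyte-derived cells, held 361.3, 295.5 and 293.9 in the untreated LN libraries. The 4 libraries at 14 days held 493, 318.8, 490.6 and 459.1. Of these, 3 lay above every untreated library and replicate 2 among them. The log2 change of 0.46 (SE 0.14, 95% interval 0.15 to 0.76) had an adjusted p of 0.184 by limma, and of 0.0311 without that replicate. The 11 alternatives that kept all libraries of both groups gave 0.0611 to 0.428. After 1 and 3 days it was 0.26 in each case (adjusted p = 0.504 and 0.424), and in S the changes were 0.13, 0.22 and -0.03.

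Clec4a4, the lectin known as DCIR2 on splenic cDC2, separated the labels more than any treatment. It held 5.19 to 28.2 normalised counts in the 20 S libraries and 246.5 to 405.2 in the 13 LN libraries. At these counts its S changes of 0.15, 0.21 and 0.16 carried 95% intervals of -0.65 to 0.94, -0.58 to 1.01 and -0.64 to 0.95, so that a change of this size was not detectable in S. In LN it stood at 279.7, 281.2 and 269.6 without NAM and at 405.2 and 326.8 after 1 day (0.39, SE 0.15, adjusted p = 0.212 by limma). After 3 days the LN values were 295, 381.2, 331.3 and 338.5 (0.28, adjusted p = 0.306). All libraries at 1 and 3 days lay above the untreated ones.

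Siglech and Ccr9 are the pDC genes of the set, a sialic acid-binding receptor and a chemokine receptor for Ccl25. Ccr9 is also present on some T cells, and its row, chr9:123678096-123783457 of mm10, overlaps exons of Slc6a20a on the opposite strand and of the noncoding Gm17200 and contains Lztfl1, so its level is uncertain where strand was not used. In LN, Ccr9 stood at 1508, 1359 and 1512 without NAM, at 1755 and 1937 after 1 day, and at 1900, 1834, 1524 and 1753 after 3 days. Both NAM groups lay above all untreated libraries, with changes of 0.34 (SE 0.11, adjusted p = 0.139) and 0.26 (SE 0.089, adjusted p = 0.181, by limma). After 14 days it was at 1271 to 1586 and the change was -0.03.

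Siglech in LN stood at 2820, 2584 and 3044 without NAM and at 3082 and 3922 after 1 day (0.31, SE 0.15, adjusted p = 0.335 by limma). The 3-day values were 4098, 3080, 2920 and 3659 (0.28, SE 0.12, adjusted p = 0.3). In S, Siglech ranged from 2343 to 3912 and Ccr9 from 1334 to 2737, and no change of either exceeded 0.20 in size. The log2 ratio of Siglech to Cd209a was 3.73 ± 0.08 in untreated S libraries and 3.70 ± 0.06 after 3 days, while that of Xcr1 to Siglech went from -0.68 ± 0.19 to -1.31 ± 0.30 (4 of 5 libraries below all untreated ones).

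Fscn1 encodes fascin, the actin-bundling protein of mature dendritic cells and of some stromal cells. Its row (GSMG0030007) covers chr5:142960355-142973189 of mm10, plus strand, with 8 exon blocks. The untreated LN libraries held 1455, 1460 and 1469 normalised counts. After 3 days the 4 libraries held 1865, 2147, 1702 and 1807, all above the untreated ones. The mean went from 1461 ± 6.64 (SD, n = 3) to 1880 ± 190 (SD, n = 4), a log2 change of 0.36 (SE 0.083, 95% interval 0.18 to 0.53, adjusted p = 0.0458 by limma). It was 1634 and 1990 after 1 day (0.30, SE 0.10, adjusted p = 0.157) and 1565, 1693, 1538 and 1670 after 14 days (0.14, SE 0.083, adjusted p = 0.54, by limma).

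In LN after 3 days, where Fscn1 was called, the erythroid list was lower, with 7 of 9 genes tested called lower and a median change of -1.79. With its summed level as a covariate, added after the data were seen, the change of Fscn1 was 0.18 (adjusted p = 0.564 by limma), where all 11 alternatives that kept every library of both groups gave 0.00535 to 0.564 and called it in 6. Leaving out 1 library gave 0.136, 0.187 or 0.123 without untreated replicate 1, 2 or 3 and 0.0933 or 0.131 without 3-day replicate 1 or 2. Without the library rich in pancreas genes the adjusted p was 0.0283.

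In LN, 8 of the 10 genes had groups that did not overlap after 1 day (7 higher and 1 lower), 4 after 3 days (all higher) and 2 after 14 days (1 in each direction). The same held for 32.6%, 15.3% and 11.5% of all rows, in groups of 2, 4 and 4 libraries against 3. Without the library rich in pancreas genes, the 1-day changes rested on 1 library, assumed to vary like the other groups. They were then 0.11 for Batf3, 0.28 for Flt3, 0.27 for Cd209a, 0.24 for Clec4a4, 0.48 for Siglech, 0.41 for Ccr9, 0.45 for Fscn1 and -0.36 for Zbtb46, with adjusted p from 0.0962 to 0.769 by limma.

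**Figure D3:**
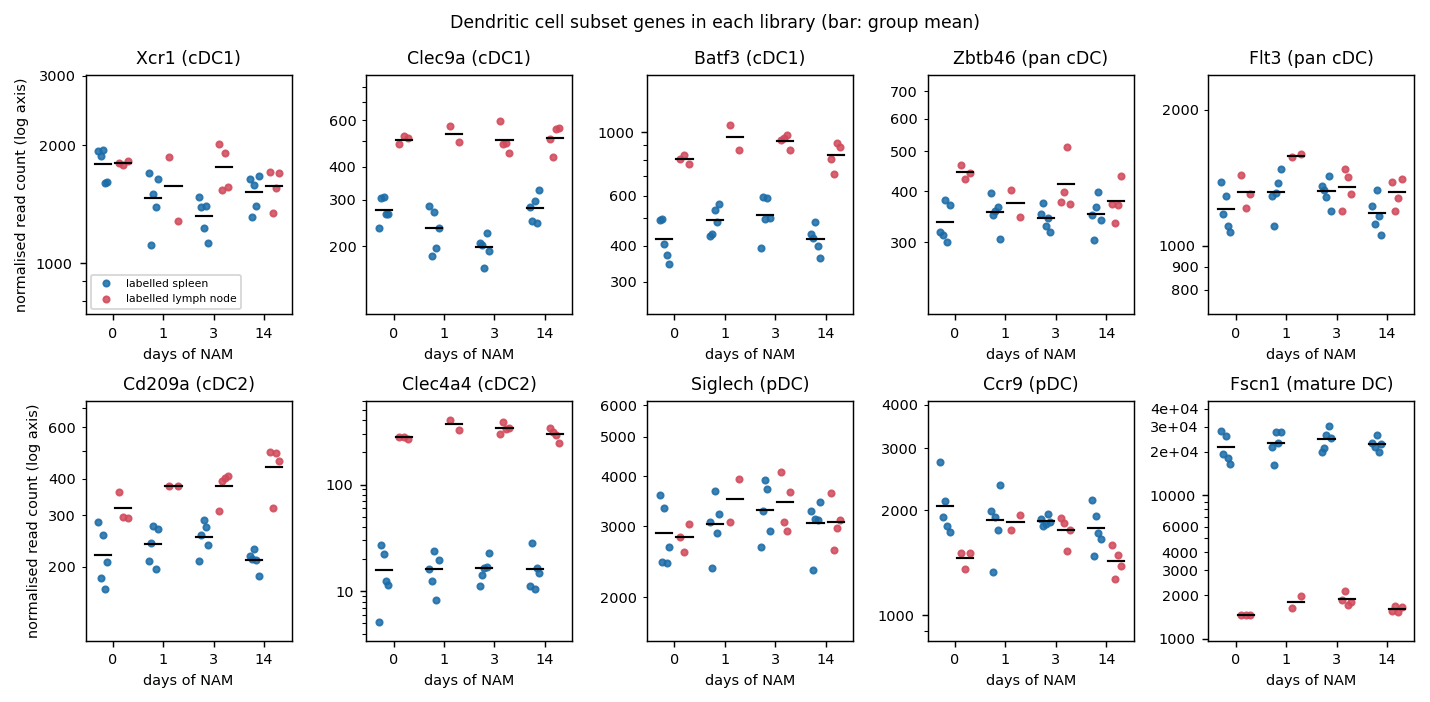
Normalised read count of each gene (log y axis) in each library by days of NAM (x axis), for the libraries labelled spleen (blue) and lymph node (red), which were scaled separately. Each point is 1 library and each bar a group mean. Xcr1 and Clec9a of S lie below all untreated libraries after 3 days, Fscn1 of LN above them, and Clec4a4 and Fscn1 differ most between the labels.

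The levels of the 10 genes per length, in untreated libraries, gave a different order in each label. In S, Fscn1 led at 233 ± 45.5 RPKM (recovered reads scaled to the library total and to kb of exon, SD, n = 5), ahead of Siglech at 27.9 ± 4.1 and Xcr1 at 13.2 ± 0.959. Batf3 (8.64 ± 1.36), Ccr9 (6.55 ± 1.08) and Flt3 (6.38 ± 0.464) followed, and neither Batf3 and Ccr9 nor Ccr9 and Flt3 differed beyond their spread. Cd209a (4.53 ± 0.872), Clec9a (2.74 ± 0.327), Zbtb46 (1.3 ± 0.139) and Clec4a4 (0.665 ± 0.38) closed the order. In LN, Siglech led at 23.7 ± 1.94 (SD, n = 3), and Batf3 (14.3 ± 0.557) and Fscn1 (13.8 ± 0.209) did not differ beyond their spread. Xcr1 (11.5 ± 0.197), Clec4a4 (10.2 ± 0.226), Flt3 (6.07 ± 0.439), Cd209a (5.69 ± 0.621), Clec9a (4.38 ± 0.2), Ccr9 (4.05 ± 0.22) and Zbtb46 (1.49 ± 0.042) followed, with overlapping spreads for Flt3 and Cd209a and for Clec9a and Ccr9. Lengths are the joined exons of GENCODE vM21, since the regions the authors counted are not listed in the sources used here. For the study's tumor RNA-seq the methods describe counting only on parts of genes that splicing leaves constant. Were that so here, the levels per length would be too low by an unknown factor for each gene.

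Between labels, on a scale computed over all 33 libraries together, Fscn1 was 16.3-fold higher in untreated S libraries than in untreated LN libraries, and Clec4a4 was 16-fold lower. Over all groups, Fscn1 lay at 17010 to 31530 in S and 1385 to 2029 in LN, and Clec4a4 at 5.49 to 29.3 and 235.3 to 387.3. Clec9a (1.67-fold) and Batf3 (1.73-fold) were lower in S, again with no overlap over the 33 libraries. Zbtb46 (1.2-fold lower) and Ccr9 (1.56-fold higher) did not overlap among the untreated libraries alone, and Xcr1 (1.10-fold), Flt3 (1.01-fold), Siglech (1.13-fold) and Cd209a (1.3-fold) overlapped. The untreated groups did not overlap for 6 of the 10 genes, as for 59.6% of all rows. Batf3 and Clec9a but not Xcr1 were thus lower in S, and the log2 ratio of Xcr1 to Clec9a was 2.71 in S and 1.83 in LN. These levels were given without a test.

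**Figure D4:**
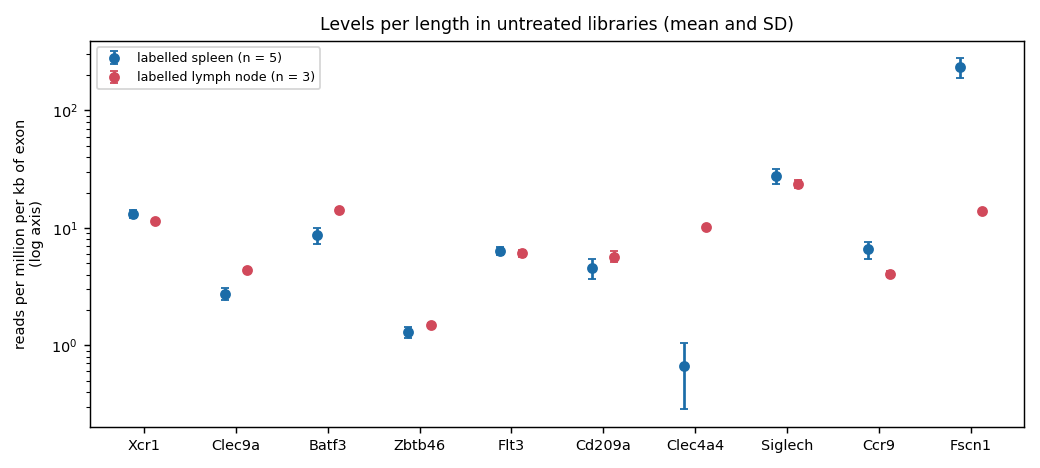
Level per length as RPKM (reads scaled to the library total and to kb of exon, log y axis) of each gene in the untreated libraries labelled spleen (blue, n = 5) and lymph node (red, n = 3), as mean and SD. Fscn1 lies at 233 in S and 13.8 in LN, Clec4a4 at 0.665 and 10.2.

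The ligands of 3 of these receptors were read in the same libraries. Flt3l, the growth factor for Flt3, fell in S after 1 day, from 1493, 1218, 1511, 1249 and 1223 to 1095, 1043, 1054, 983.3 and 1045. No library at 1 day reached the lowest untreated one, where 11.9% of all 18243 rows had groups without overlap and 16.6% were called. The log2 change was -0.35 (SE 0.089, adjusted p = 0.0108 by limma). It was -0.27 (adjusted p = 0.0726) after 3 days and -0.09 (adjusted p = 1.0) after 14 days, and between -0.09 and 0.11 in LN. Flt3 itself was 0.12 higher in S after 1 day (adjusted p = 0.347). Xcl1, the ligand of Xcr1, had its largest change in S after 3 days, -0.35 (SE 0.15, adjusted p = 0.182), when Xcr1 fell. Ccl25, the ligand of Ccr9, was at 49.9 to 108.6 in all libraries and was not called in any comparison with untreated libraries.

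The other genes of 6 lists of dendritic cell genes gave the setting of these changes, and all their genes were tested except Csf2 in S. Of 14 cDC1 genes, 3 were called lower and none higher in S after 3 days: Clec9a, Xcr1 and Irf8, the transcription factor that defines this lineage and is also strong in B cells (7102 ± 651 to 5635 ± 437, -0.33, adjusted p = 0.0492 by limma). Over all rows 5.55% were called and 2.74% called lower. The median of the list was -0.17, as in the T cell list (-0.17), while the macrophage and pDC lists had a median of -0.26 each. Leaving out 1 of the 10 libraries gave Irf8 an adjusted p of 0.0196 to 0.14, and under 0.05 only without 3-day replicate 1, and it was called in 6 of the 11 alternatives that kept all libraries of both groups (up to 0.088). Of the genes of these lists named with their values below, only Cox6a2, Runx2, Ccl17, Klk1 and Ccl21a were also called by an unadjusted p with a fold of at least 1.5, which Irf8 did not reach. No cDC1 gene was called in S after 1 or 14 days or in LN by limma, where 2 and 1 genes in S, and 3, 2 and 1 in LN after 1, 3 and 14 days, had an unadjusted p under 0.05. The summed cDC1 list lay below all untreated LN libraries (58580 to 61440) in every LN library on NAM (48260 to 57540). Cd24a, which is also strong in erythroid and B cells and is named here after its values were seen, made up the most of this sum (mean 30220 untreated) and was not called (-0.33 after 14 days, adjusted p = 0.0826).

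Of 13 cDC2 genes, 1 was higher and 2 lower in S after 1 day, against 16.6% of all rows called. Esam, an adhesion molecule of Notch2-dependent splenic cDC2 and of endothelium, rose by 0.55 (adjusted p = 0.00454), while the cDC2 surface receptor Sirpa (-0.46, adjusted p = 0.0173) and the transcription factor Irf4 (-0.44, adjusted p = 0.00754, all by limma) fell. None was called after 3 or 14 days or in LN.

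Of 15 pDC genes, 5 were lower and 1 higher in S after 1 day, against 16.6% of all rows called. The largest were Cox6a2, a cytochrome oxidase subunit (249 ± 102 to 141.7 ± 46.2, -0.78, adjusted p = 0.022), Runx2 (-0.78, adjusted p = 0.0169) and the interferon-induced Bst2 (0.53, adjusted p = 0.0147, by limma). After 3 days 3 were lower, against 2.74% of all rows called lower: Tcf4, the factor that maintains the lineage (-0.42, adjusted p = 0.0453), Spib, which is shared with B cells (-0.40, adjusted p = 0.0463), and Tlr9, an endosomal DNA sensor also present in B cells (-0.34, adjusted p = 0.0427, by limma). Without 1 library these 3 calls had an adjusted p of up to 0.132, 0.137 and 0.131, and those of Spib and Tlr9 stayed under 0.05 only without 3-day replicate 1. With all libraries of both groups kept, Tcf4 was called in 5 of 11 alternatives (up to 0.115) and Spib and Tlr9 in 6 of 11 each (up to 0.0809 and 0.0976). The call of Cox6a2 was lost without untreated replicate 1 or 3 (0.0641 and 0.0538) or 1-day replicate 2 or 4 (0.052 and 0.0654), and with library weights (-0.49, 0.103) or the 2 groups alone (0.0978). The members Siglech and Ccr9 were not called in either comparison. In the same S comparisons, 2 of 10 B cell genes were lower after 1 day (Pax5 -0.46, Fcer2a -0.40) and none after 3 days, and the summed B cell list was 310900 to 430300 without NAM, 257100 to 332600 after 1 day and 278900 to 338900 after 3 days. After 1 day 4 of 10 monocyte genes, 2 of 12 macrophage genes and 2 of 10 T cell genes were also lower and 1 macrophage gene higher, and the neutrophil, adipocyte and erythroid lists had medians of 1.58, 0.98 and 0.65. The part of these lists in the changes of the dendritic cell lists was not tested. In LN, Klk1 was called after 1 day (1.46, adjusted p = 0.00781). It stood at 2217 in the library rich in pancreas genes and at 930 in the other, and without that library the change was 0.84 (adjusted p = 0.0765 by limma).

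Of 14 pan-cDC genes, 2 were lower in S after 1 day and 1 after 3 days, against 16.6% and 5.55% of all rows called. Csf2rb, the shared subunit of the GM-CSF receptor, was lower in S after 1 day (-0.44, adjusted p = 0.00657) and after 3 days (-0.35, adjusted p = 0.049), and the inhibitory receptor Btla after 1 day (-0.41, adjusted p = 0.0259, by limma). The 3-day call of Csf2rb stayed under 0.05 only without 3-day replicate 1 (0.00177 to 0.152 over the 10 libraries left out in turn, and called in 6 of 11 alternatives that kept all of them), and that of Btla was lost without any of 4 libraries (untreated replicates 3, 4 and 5 and 1-day replicate 2, 0.0514 to 0.0605), and with the 2 groups alone (0.0754), the adipocyte covariate (0.0581) or the fold rule. Of 14 genes of mature dendritic cells, 1 was called in S after 1 day (16.6% of rows) and 1 in LN after 3 days (1.24%). The chemokine Ccl17 was higher in S after 1 day (152.4 ± 45.1 to 231 ± 25.2, 0.64, adjusted p = 0.0262), and Fscn1 was the only one called in LN, after 3 days, when 13 of 14 had changes above 0 and the median was 0.16. The call of Ccl17 was lost without untreated replicate 2, 4 or 5 (0.0707, 0.0575 and 0.061) or 1-day replicate 3 (0.0624). Among 9 ligands and growth factors in S, Flt3l and the macrophage growth factor Csf1 (-0.33, adjusted p = 0.0306) were lower after 1 day (16.6% of rows called). The call of Csf1 was lost without untreated replicate 2, 3 or 5 (0.0663, 0.0743 and 0.0726) or 1-day replicate 1 or 4 (0.0788 and 0.0685), and with no filter (0.051), the 2 groups alone (0.0777) or the fold rule. Among 10 in LN, Ccl21a was higher after 1 day (0.90, adjusted p = 0.0126, 1.21% of rows called) and Ccl19 after 3 days (0.50, adjusted p = 0.00918, by limma). Both are chemokines for Ccr7 made by stromal cells. The call of Ccl21a was lost without untreated replicate 2 (0.0659) or without either NAM library (0.0512 and 0.137), and that of Ccl19 without untreated replicate 1 or 2 (0.0547 and 0.0912) or with the erythroid covariate (0.237). No gene of the 6 lists was called after 14 days in either label.

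**Figure D5:**
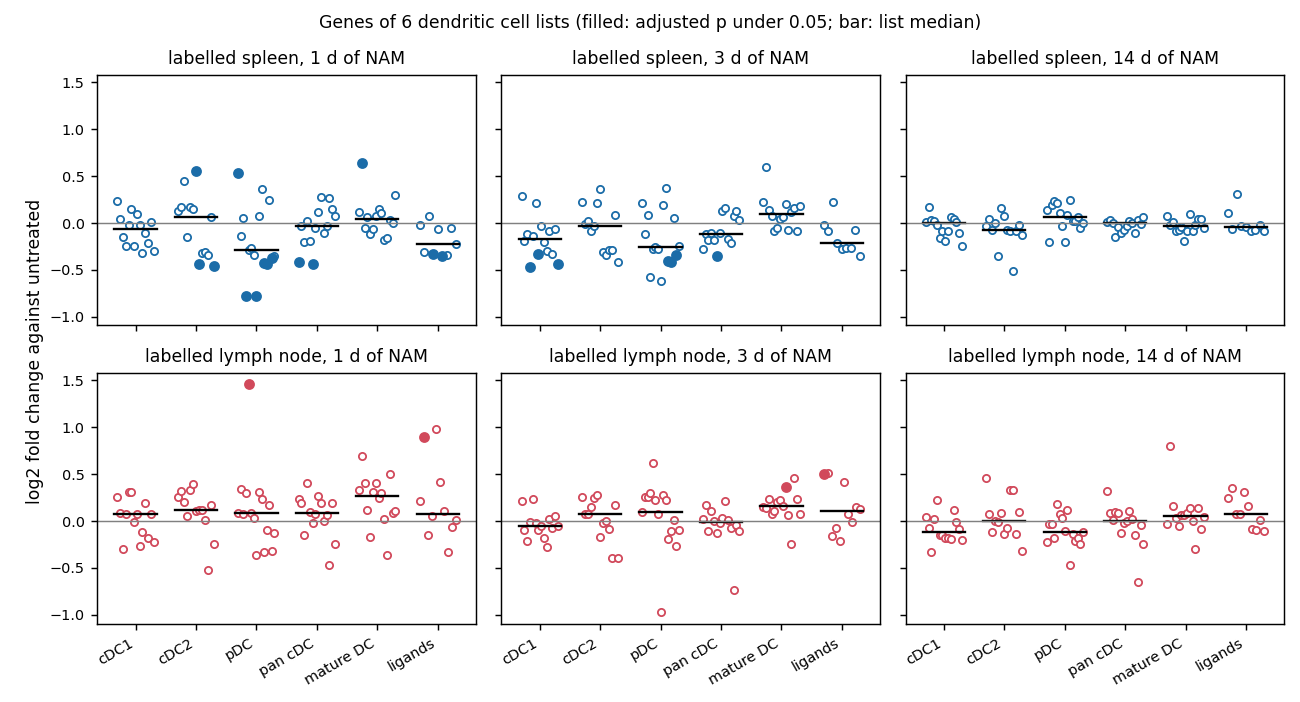
Log2 fold change against untreated libraries (y axis) of every gene tested in 6 lists of dendritic cell genes (x axis) for each label and duration. Each point is a gene, filled where its adjusted p by limma is under 0.05, and each bar is the median of a list. The cDC1 list in S after 3 days has a median of -0.17 and 3 filled points, all below 0, and no point is filled after 14 days.

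The genes whose values moved most like a member within groups were named by the Pearson r of deviations from the group means on the log2 scale, as a description over libraries that also differed in makeup and depth. For Xcr1 in the 20 S libraries they were Gm20324 (0.92), Cyth4 (0.91), Slc30a7 and Fam78a (0.89 each). In the 13 LN libraries they were a row shared by Mir223 and F630028O10Rik (0.95), Tlr11, a cDC1 receptor for profilin (0.94), Fndc7 (0.93) and a row with no symbol (0.91). Among the 10 genes, Xcr1 in S had an r of 0.74 with Ccr9, 0.70 with Clec9a, 0.68 with Flt3 and 0.26 with Batf3, and in LN of 0.76 with Clec9a and 0.67 with Batf3. With Fscn1 the r of Xcr1 was 0.51 in S and -0.7 in LN. For Fscn1 in S they were Cxcl16 (0.94), Actb, Rhog and Bcl2a1b (0.92 each), and in LN 4 rows with no symbol (0.91 to 0.92). For Siglech in S they were Scamp2, Nefh, Gosr2 and Ccr8 (0.89 each), and in LN Gm36556 (0.94), Ghr (0.93), Zfp317 and a row with no symbol (0.92 each), while Ccr9 had an r of 0.67 with Siglech in S and 0.81 in LN. In S both had a higher r with Fscn1 (0.76 each), as Ccr9 did with Flt3 (0.83). For Cd209a they were Wfdc17 (0.89), Aldh3a1 (0.88), Il3ra and Oit1 (0.87 each) in S, and Ftx (0.94), Sh3gl2 (0.91), Tmem181b-ps (0.90) and Mcoln1 (0.88) in LN.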

How the data were processed

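RNA of 33 libraries was sequenced by the authors as 2X75 paired-end TruSeq mRNA reads. The submitters' processing notes name STAR 2.4.0, Picard, SAMtools, FastQC, DESeq2 and the mm10 build. The deposited signal is a count per gene divided by a size factor per library, as the authors made it, with S and LN scaled separately. For other RNA-seq sets of the study the methods state counting over constitutive parts of FAST DB genes. For these libraries the counted region, and the use of strand, are not given in the sources used here. Dividing by the step of each library gave whole reads for 100.0% of values (tolerance 0.1), with 18325061 to 54830743 reads in S and 30424968 to 46733974 in LN. In S, every 3-day library was deeper than every untreated one. No 2 of the 56 replicate pairs were identical.

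Within each label, limma 3.58.1 (R 4.3.3, two-sided, trend) was fitted to log2(normalised count + 1) over all 4 groups and all rows with a mean of at least 10, with Benjamini-Hochberg adjustment and a threshold of 0.05. Fold changes are on this scale, which understates those of low genes. Label differences were an interaction term over 33 libraries. A count test was run as an alternative on the recovered reads, with edgeR 4.0.16 and DESeq2 1.42.0, and scripts were tested on simulated data. Rows with no gene symbol (30657 of 56414) stayed in. The genes and lists were chosen with earlier results of these data known. Named were the 10 genes, 3 ligands, up to 3 called genes per dendritic cell list and comparison by size of change, Glycam1, Spic and the 4 rows most like Xcr1, Siglech, Cd209a and Fscn1. Promoter windows are from RefSeq.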

Additional observations from a re-analysis of the deposited data

Results flagged for a closer look

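No library stood apart from its group by Dixon's 95% criterion in any of the 60 sets of 4 or 5 libraries looked at, where chance gives about 1 in 20, and groups of 2 or 3 libraries were not looked at. The change with NAM was not shown to differ between the labels for any of the 10 genes by the limma interaction test.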

How the results depend on the processing

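Of 1170 values of the 10 genes under an alternative, 1116 kept their direction, 30 lost and 10 gained a call, and 54 changed sign. In S after 3 days the count of genes called, 2, became 1 with no filter on low values, with TMM scaling or with the replicate block, 5 with library weights (Batf3, Cd209a and Siglech added, where 25.9% of all rows were called against 5.55%), 3 with the adipocyte covariate (Batf3 added, 11.9% of rows), and 0 with the 2 groups alone or with an unadjusted p and a fold of 1.5, which neither gene reached. In LN after 3 days the count of 1 became 0 with no filter, with the replicate block, with that fold rule, with edgeR and with the erythroid covariate. The adipocyte covariate gave 2 calls in S after 1 day, Batf3 (0.35, adjusted p = 0.0317, range over alternatives 0.0317 to 0.329) and Flt3 (0.23, adjusted p = 0.0179, range 0.0179 to 0.482, by limma), where 20.9% of all rows were called against 16.6%. Both covariates, and leaving the library rich in pancreas genes out of every LN fit, were chosen after seeing the data. Leaving out 1 library gave 0 to 1 calls in S after 1 day, 0 to 3 in S after 3 days, 0 to 1 in S for 14 against 3 days, 0 to 1 in LN after 3 days and 0 to 1 in LN after 14 days. The cause of these shifts was not tested.

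Replicate numbers did not pair the samples. Deviations of same-numbered libraries correlated between -0.5 and 0.47 in S (13 of 30 pairs over 0.1) and between -0.11 and 0.08 in LN (0 of 16). Those of libraries with different numbers correlated between -0.56 and 0.55 in S (41 of 120) and between -0.1 and 0.11 in LN (2 of 46). The replicate block is therefore only a hint. With it Clec9a (-0.4686, adjusted p = 0.0517) in S and Fscn1 (0.3587, adjusted p = 0.0531) in LN lost their calls after 3 days, and of the list genes Tcf4 (adjusted p = 0.052), and no other call in a comparison with untreated libraries changed.

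No change that reversed had been called. With the adipocyte covariate these were Clec4a4 (-0.0212) and Ccr9 (0.0516) in S after 1 day and Flt3 (0.0164) and Cd209a (0.0329) after 14 days. With library weights they were Flt3 (0.009), Cd209a (0.0874) and Clec4a4 (-0.0302) in S after 14 days, Flt3 in LN after 14 days (0.0017) and Xcl1 in LN after 1 day (-0.0027). With edgeR they were Batf3 (-0.0056) and Clec4a4 (-0.0019) in S after 14 days. With the erythroid covariate they were Xcr1 (0.2443), Clec9a (0.1244) and Flt3 (-0.0181) in LN after 3 days and Xcr1 (0.0296) and Ccl25 (-0.0128) after 14 days. Flt3 in LN after 14 days was also 0.0004 with TMM scaling and 0.0001 with DESeq2. Others changed sign when 1 library was left out. In LN after 14 days these were Batf3 (-0.0083 to 0.1122), Ccl25 (-0.0549 to 0.1631), Ccr9 (-0.0807 to 0.0258), Clec9a (-0.0265 to 0.0942) and Flt3 (-0.0576 to 0.0616). In S after 14 days these were Batf3 (-0.0562 to 0.0736), Cd209a (-0.1216 to 0.0696), Clec4a4 (-0.1553 to 0.3925), Clec9a (-0.033 to 0.0681) and Flt3 (-0.074 to 0.0213). In S after 1 day these were Ccl25 (-0.0622 to 0.1797) and Clec4a4 (-0.1638 to 0.3841). In S after 3 days these were Clec4a4 (-0.0974 to 0.4505) and Zbtb46 (-0.0073 to 0.078). In LN after 1 day these were Clec9a (-0.0265 to 0.1684), Flt3l (-0.0977 to 0.3107), Xcl1 (-0.0388 to 0.0606) and Xcr1 (-0.4937 to 0.0497). In LN after 3 days these were Clec9a (-0.086 to 0.045), Flt3 (-0.0262 to 0.0931) and Xcr1 (-0.1168 to 0.0147).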
